A study of Mus musculus with 12 samples.

Results

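The nCounter miRNA panel carries, beside its miRNA probes, 4 probes against the mRNAs of beta-actin (Actb), beta-2-microglobulin (B2m), glyceraldehyde-3-phosphate dehydrogenase (Gapdh) and ribosomal protein L19 (Rpl19). They were taken as every row that the raw count table assigns to its housekeeping class, which gave 4 of 626 named rows, beside 566 mouse miRNA and 33 viral miRNA probes. No measured value entered that rule, although it was set with earlier results of these data known. The panel binds a fluorescent barcode to each target molecule and counts the barcodes, so each value is a count per probe in 1 lane of the instrument.

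The samples were optic nerves taken from male C57Bl/6 mice and kept outside the animal, in 4 groups of 3. Control nerves had no listed agent. OGD nerves underwent oxygen-glucose deprivation, which withholds oxygen and glucose as a model of ischaemia. The OGD+CX-4945 and OGD+MS-275 nerves underwent the same deprivation and had 1 drug each, so both drug groups share the deprivation with the OGD group, and no group had a drug without it. CX-4945, also called silmitasertib, is an inhibitor of the protein kinase CK2. MS-275, also called entinostat, blocks histone deacetylases of class I. The sources used here give no ages, doses or durations, and do not say how many nerves or animals make a sample. Nothing says that the 3 samples of a group came from separate animals, so p-values measure the spread between these samples, which may be technical. The suffixes of the sample titles run in group order, and no label says what they stand for. If they give the position in the run, position and group cannot be told apart. The labelled extract was enriched for small RNA, although the molecule field of the labels names total RNA. How much mRNA such an extract kept in each sample is not known here, so its part in the mRNA counts and in the miRNA-to-mRNA ratio was not tested.

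Housekeeping mRNAs are transcripts that nearly all cells make for basic functions, and their level is often taken as a measure of how much cellular RNA entered an assay. Beta-actin forms the microfilaments of the cytoskeleton, beta-2-microglobulin is the invariant chain of MHC class I molecules and is induced by interferons, Gapdh carries out a step of glycolysis, and Rpl19 belongs to the large ribosomal subunit. Glycolytic genes, Gapdh among them, are known targets of the hypoxia-inducible factor in many cells, which bears on their use as a reference under oxygen deprivation. On this panel mRNA is read without the ligation step that tags miRNAs, so a ratio of miRNA to mRNA counts compares molecules that took different routes through the assay.

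In RefSeq annotation of GRCm38.p6, Actb lies at chr5:142903115-142907976, B2m at chr2:122147687-122153082, Gapdh at chr6:125161852-125166467 and Rpl19 at chr11:98022003-98030493. The stretches before the transcription start are shown as background on these genes, and whether transcription had a part in the counts was not tested. The RefSeq promoter table held no window for Actb, 1 window each for B2m and Gapdh and 2 for Rpl19, which has 2 annotated starts there. The 250 bases before the start are printed, for Rpl19 before the first of those 2 starts, 5′ to 3′ on the gene's strand. By the coordinates given, the B2m window ends where the gene begins. The Gapdh and Rpl19 windows lie inside the annotated gene, so they stand before internal starts and not before its 5′ end. Capitals mark matches, on either strand, to 3 cores that were searched: TATAA of the TATA box, ACGTG of the hypoxia response element and, for the interferon-stimulated response element, GAAA followed by any 2 bases and GAAA again.
B2m, chr2:122147437-122147686, plus strand: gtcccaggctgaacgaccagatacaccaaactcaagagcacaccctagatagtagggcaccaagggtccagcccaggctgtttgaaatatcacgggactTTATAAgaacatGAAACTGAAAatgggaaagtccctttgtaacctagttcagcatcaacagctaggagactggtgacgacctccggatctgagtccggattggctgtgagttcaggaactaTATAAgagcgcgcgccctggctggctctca
Gapdh, chr6:125165774-125166023, minus strand: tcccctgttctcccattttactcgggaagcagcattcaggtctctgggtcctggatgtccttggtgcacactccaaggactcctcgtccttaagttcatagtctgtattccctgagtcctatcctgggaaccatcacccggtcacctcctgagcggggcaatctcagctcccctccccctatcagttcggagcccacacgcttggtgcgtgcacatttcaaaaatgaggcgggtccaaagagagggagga
Rpl19, chr11:98026460-98026709, plus strand: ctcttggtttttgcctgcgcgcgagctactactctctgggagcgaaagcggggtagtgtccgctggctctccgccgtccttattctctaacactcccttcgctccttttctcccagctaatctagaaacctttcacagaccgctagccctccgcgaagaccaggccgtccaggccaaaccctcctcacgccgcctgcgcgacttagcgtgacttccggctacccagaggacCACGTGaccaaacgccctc
The interferon core stood once in the B2m window, 139 bases before the start, and such a core was found in 2.977% of 32851 mouse windows of the same length. TATAA began 30 bases before the B2m start and, on both strands of 1 overlapping stretch, 151 and 150 bases before it, and it was found in 22.78% of windows. The printed Rpl19 window held ACGTG on both strands of the overlapping CACGTG, beginning 19 and 18 bases before the first start, against 16.57% of windows. The other Rpl19 window, chr11:98026674-98026923, overlaps it and holds the same letters at positions -233 and -232 from its own start. The Gapdh window, which stands before an internal start, held none of the 3 cores. A match is a string of letters and no measured site.

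The lanes differed in total signal before any comparison. The summed mouse miRNA count ran from 254692 to 542399 per lane, and the geometric mean of the 6 Positive control probes, which are spiked in at fixed amounts and report hybridisation and counting, ran from 894 to 1247. A lane's detection limit was set at the mean plus 2 SD of its 8 negative probes, and 217 miRNA probes exceeded it in at least 3 of the 12 lanes. OGD replicate 2 stood apart: it had the lowest summed miRNA count of all lanes, and the second highest mRNA mean. Many results that rest on the OGD group are therefore also given without it. Of the marker miRNAs, the 3 of the oligodendrocyte lineage, which supplies the myelin of this nerve, were above the limit in every lane and held 7.25% to 9.43% of the miRNA count. The 5 of neurons and retina held 1.81% to 2.32%: miR-124 and miR-128 were above the limit in every lane, and miR-183, miR-96 and miR-182 in none.

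All 4 mRNA probes were measured well above background in every lane. Over the 12 lanes, the lowest multiple of a lane's own limit was 64.1 for Actb, 13.1 for Rpl19, 12.7 for B2m and 5.52 for Gapdh. Counts of different probes depend on each probe's binding and are not read as relative abundance.

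Actb was counted 2644, 4038 and 3398 times in Control, 3439, 5728 and 4437 times in OGD, 4049, 3679 and 5208 times in OGD+CX-4945 and 3952, 4002 and 4321 times in OGD+MS-275, each in replicate order. Control replicate 1 was the lowest and OGD replicate 2 the highest, 2.17 times apart, and the ranges of all groups overlapped. The 3 OGD+MS-275 lanes lay closest together, at 4092 ± 200 (SD, n = 3), where OGD had 4535 ± 1148 (SD, n = 3).
B2m was counted 666, 1123 and 779 times in Control, 713, 1027 and 997 times in OGD, 770, 731 and 1253 times in OGD+CX-4945 and 713, 739 and 755 times in OGD+MS-275. In each of the first 3 groups 1 or 2 lanes were at 997 or above, and none in OGD+MS-275, whose mean was 736 ± 21.2 (SD, n = 3) against 856 ± 238 (SD, n = 3) in Control. The OGD+MS-275 lanes nevertheless lay inside the range of the Control lanes.
Gapdh was counted 256, 331 and 303 times in Control, 296, 415 and 336 times in OGD, 368, 363 and 427 times in OGD+CX-4945 and 358, 296 and 354 times in OGD+MS-275. On these raw counts all 3 OGD+CX-4945 lanes were above all 3 Control lanes, at 386 ± 35.6 against 297 ± 37.9 (SD, n = 3 each), and the same 2 groups were fully apart, in either direction, for 20.3% of the tested miRNA probes. The gap closed once each lane was divided by its Positive probes, where the OGD+CX-4945 lanes began at 343 and the Control lanes ended at 357.
Rpl19 was counted 638, 804 and 663 times in Control, 771, 961 and 731 times in OGD, 792, 714 and 984 times in OGD+CX-4945 and 746, 651 and 771 times in OGD+MS-275. It had the smallest range of the 4 probes, 1.54-fold over the 12 lanes, against 1.67-fold for Gapdh and 1.88-fold for B2m. The highest Rpl19 lanes, OGD+CX-4945 replicate 3 and OGD replicate 2, were also the highest of Gapdh and of Actb.

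**Figure D1:**
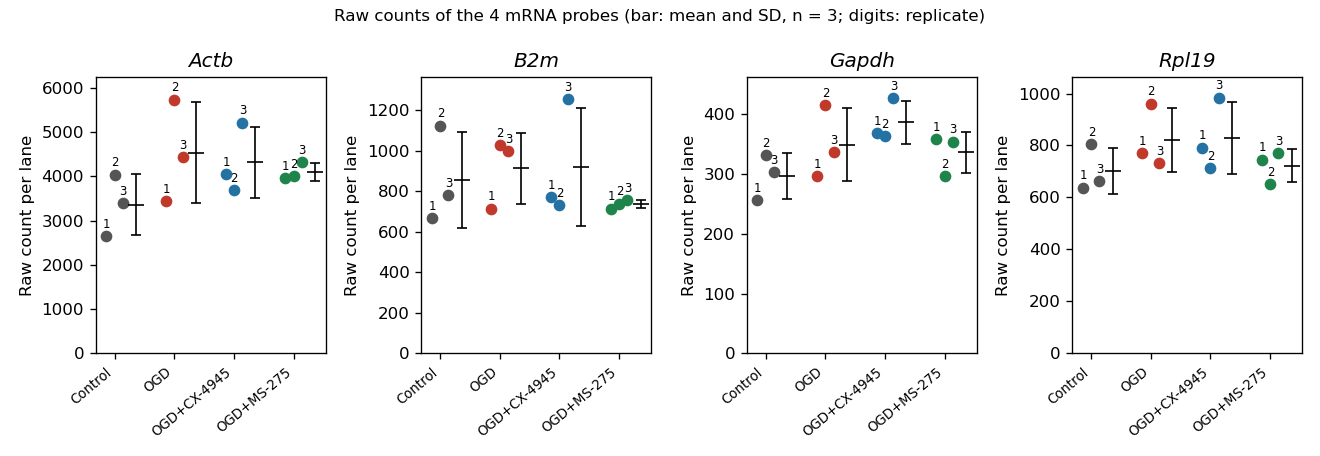
Raw count per lane of the Actb, B2m, Gapdh and Rpl19 probes in the 4 groups, with 1 point per sample, its replicate number, and a bar for the mean and SD of 3 samples. Groups overlap in nearly every panel, and OGD replicate 2 and OGD+CX-4945 replicate 3 are high for all 4 probes.

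When its level was taken per Positive control, every mRNA probe overlapped in every pair of groups, and no test passed. In 24 exact two-sided permutation tests, which covered 4 probes in 6 comparisons of 3 samples against 3, no pair of groups was fully separated and the smallest p was 0.2, where this design can reach 0.10 at best. Of the 217 tested miRNA probes on the same scale, 3.23% were fully separated in OGD against Control, 5.53% in OGD+CX-4945 against OGD, 13.4% in OGD+MS-275 against OGD, 7.37% in OGD+CX-4945 against Control, 12.4% in OGD+MS-275 against Control and 0.922% between the drug groups. Adjusted over the 24 tests by Benjamini-Hochberg, the smallest value was 0.982. The largest difference of OGD from Control was that of Actb, 1.17-fold (difference in mean log2 level 0.23, SD 0.35 in OGD and 0.30 in Control, exact permutation p = 0.4, n = 3 each). For OGD+MS-275 against OGD it was that of B2m, 0.839-fold (log2 -0.25, SD 0.24 and 0.31, exact permutation p = 0.3, n = 3 each). Some differences were larger than the SD of either group: Gapdh was 1.16-fold higher in OGD+CX-4945 than in Control (log2 0.22, SD 0.14 and 0.19, exact permutation p = 0.2, n = 3 each). Gapdh and Rpl19 were at 1.03-fold and 1.02-fold in OGD against Control, with exact permutation p = 0.7 for each (n = 3 each).

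Relative to the miRNAs of the same lanes, all 4 mRNA probes had a positive estimate in OGD against Control and a negative one in either drug group against OGD, and none passed the threshold. These values come from edgeR's quasi-likelihood test on the raw counts of 217 miRNA and the 4 mRNA probes, with TMM factors from the miRNA probes alone, so that a log2 difference of 0 means that an mRNA moved with the bulk of the miRNAs. The comparisons with OGD share its 3 samples, so the opposite signs are not independent of each other.
In OGD against Control, the estimate for Actb was 0.46 ± 0.30 (log2, SE; edgeR adjusted p = 0.896), and those of Gapdh, Rpl19 and B2m were 0.24, 0.22 and 0.08. None of the 4 passed, where 0.0% of the 221 probes did. Actb scaled by the miRNAs stood at 3362, 5192 and 3400 in Control and at 3095, 8753 and 4595 in OGD, so OGD held both the lowest and the highest of these lanes. Without OGD replicate 2 the 4 estimates were -0.05 for Actb, -0.29 for B2m, -0.19 for Gapdh and -0.20 for Rpl19, so each changed sign.

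In OGD+MS-275 against OGD, the estimates were -0.63 ± 0.30 for Actb, -0.77 ± 0.29 for B2m, -0.52 ± 0.27 for Gapdh and -0.64 ± 0.26 for Rpl19 (log2, SE), with adjusted p from 0.206 to 0.260 in edgeR's test. None of the 4 passed, where 0.452% of the 221 probes did. B2m scaled by the miRNAs was 642, 1569 and 1033 in OGD and 522, 628 and 753 in OGD+MS-275, so 1 OGD lane lay within the drug group and 2 lay above it. Without OGD replicate 2 the estimates were -0.12 for Actb, -0.40 for B2m, -0.09 for Gapdh and -0.22 for Rpl19. The geometric mean of the positive ligation controls, which report how much small RNA received its tag, was 2914 to 3155 in OGD+MS-275 and 1109 to 2423 in OGD. With the log2 ligation count as a covariate the estimates were -0.12 for Actb, -0.43 for B2m, -0.02 for Gapdh and -0.09 for Rpl19. Their edgeR adjusted p ran from 0.716 to 0.986. The ligation counts of the 2 groups did not overlap, so ligation and group cannot be told apart in this fit. The part of ligation in the estimates was not tested.
In OGD+CX-4945 against OGD, the estimates ran from -0.27 for Gapdh to -0.53 for Actb, with an edgeR adjusted p of 0.680 for Actb, B2m and Rpl19 and of 0.805 for Gapdh. None passed, where 0.0% of the probes did, and without OGD replicate 2 they ran from -0.08 for B2m to 0.16 for Gapdh.
Against Control, B2m had the largest estimate with MS-275, -0.69 ± 0.29 (log2, SE; edgeR adjusted p = 0.168), and none of the 4 passed, where 1.36% of the probes did. With CX-4945 against Control the estimates ran from -0.37 for B2m to -0.04 for Gapdh, and between the drug groups from -0.32 for B2m to -0.10 for Actb, and none of the 4 passed in either, where 0.0% of the probes did. Over the 24 tests, 3 had an unadjusted p under 0.05, namely B2m and Rpl19 in OGD+MS-275 against OGD and B2m in OGD+MS-275 against Control. DESeq2 called none of the 24 either. In whole-nerve RNA, fewer cells with an mRNA and less of it per cell cannot be told apart.

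The ratios of the mRNA probes to each other need no scaling between lanes, and the ratio of Actb to B2m separated groups in the most comparisons, 3 of 6. It was 3.97, 3.60 and 4.36 in Control, 4.82, 5.58 and 4.45 in OGD, 5.26, 5.03 and 4.16 in OGD+CX-4945 and 5.54, 5.42 and 5.72 in OGD+MS-275. All 3 OGD lanes were above all 3 Control lanes, as were all 3 OGD+MS-275 lanes, and the OGD+MS-275 lanes were also above all OGD+CX-4945 lanes. The mean log2 ratio was 0.31 higher in OGD than in Control (1.24-fold), 0.49 higher in OGD+MS-275 than in Control (1.40-fold) and 0.21 higher in OGD+MS-275 than in OGD+CX-4945 (1.16-fold), each with the least p that 3 against 3 can give (exact two-sided permutation p = 0.10). The comparisons with Control share its samples. The 3 leukocyte miRNAs, all above the limit in every lane, held 0.661% to 0.777% of the miRNA count in Control, 0.665% to 0.809% in OGD, 0.581% to 0.697% in OGD+CX-4945 and 0.573% to 0.634% in OGD+MS-275. The 3 erythroid miRNAs, of which 1 exceeded the limit in all lanes, held 0.355% to 0.377% in Control and 0.212% to 0.316% over the other groups. Other lists were also fully lower in OGD+MS-275 than in Control. The endothelial miRNA held 2.829% to 3.403% in Control and 2.479% to 2.821% in OGD+MS-275. The pigment epithelium miRNAs held 1.372% to 1.555% and 1.216% to 1.259%. The oligodendrocyte, astrocyte, neuron and retina, and skeletal muscle lists overlapped between these groups. Between OGD+MS-275 and Control, 31.1% of the ratios of 2 miRNA probes above the limit in every lane did not overlap, so such separation was common. Whether cell content differed, and the part of any list in the ratios, was not tested.
The ratio of Actb to Rpl19 was 4.14, 5.02 and 5.13 in Control, 4.46, 5.96 and 6.07 in OGD, 5.11, 5.15 and 5.29 in OGD+CX-4945 and 5.30, 6.15 and 5.60 in OGD+MS-275. The OGD+MS-275 lanes were above those of Control (1.20-fold) and of OGD+CX-4945 (1.09-fold), each at exact permutation p = 0.10 (n = 3 each), though in the latter the nearest lanes, 5.30 and 5.29, nearly met. OGD overlapped every other group.
The ratio of B2m to Gapdh was 2.60, 3.39 and 2.57 in Control and 1.99, 2.50 and 2.13 in OGD+MS-275, so that all 3 lanes of the latter were lower (0.776-fold, log2 -0.37, exact permutation p = 0.10, n = 3 each). In OGD it was 2.41, 2.47 and 2.97 and in OGD+CX-4945 2.09, 2.01 and 2.93, and both overlapped Control.

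Over all 36 tests of such ratios, 6 pairs of groups did not overlap and the smallest value after Benjamini-Hochberg adjustment was 0.48, so none passed. These 6 are read against how often the ratio of 2 miRNA probes, both above the limit in every lane, separated the same samples. In OGD against Control 1 of 6 mRNA ratios did not overlap, against 10.4% of 11175 miRNA ratios. In OGD+MS-275 against Control it was 3 of 6, against 31.1%, and in OGD+MS-275 against OGD+CX-4945 2 of 6, against 6.11%. In OGD+MS-275 against OGD, OGD+CX-4945 against OGD and OGD+CX-4945 against Control it was 0 of 6, against 27.7%, 8.66% and 10.2%. The 6 ratios are built from 4 probes and are not independent of each other. Gapdh to Rpl19 was the steadiest pair, with a coefficient of variation of 7.81% over the 12 lanes and a range from 0.384 to 0.508, against 17.1% for B2m to Gapdh and 14.7% for Actb to B2m.

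The 4 mRNA probes varied together from lane to lane. Over the 12 lanes the Pearson r of log2 counts was 0.876 for Actb with Gapdh, 0.848 for Gapdh with Rpl19, 0.822 for Actb with Rpl19, 0.747 for B2m with Rpl19, 0.726 for Actb with B2m and 0.611 for B2m with Gapdh. For Actb with Gapdh the permutation p was 0.00025 (0.0055 after adjustment over 22 relations), Spearman's rho was 0.718 (permutation p = 0.0108, adjusted 0.0651), and r was 0.737 without the 2 lanes farthest from the median. For B2m with Gapdh the adjusted permutation p was 0.0812 and rho was 0.532 (adjusted 0.141). Of the 6 pairs, 5 passed after adjustment by r and none by rho, and without the 2 farthest lanes r ran from 0.580 to 0.740.
With the group means removed, which leaves only the differences between replicates, r was 0.755 to 0.906 over the 6 pairs, and 6 passed. All of these lanes also share hybridisation and counting, and with each count divided by the Positive probes r was 0.679 to 0.855.

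No correlation of an mRNA count with the miRNA count of the same lanes passed. With the summed mouse miRNA count, r was 0.121 for Gapdh, 0.042 for Actb, 0.020 for Rpl19 and -0.009 for B2m (adjusted permutation p above the threshold for all, rho from -0.119 to 0.053). With the positive ligation controls r ran from -0.098 for Rpl19 to 0.209 for Gapdh. With the Positive probes it was 0.597 for Rpl19, 0.596 for Gapdh, 0.461 for Actb and 0.077 for B2m, and none passed. With the mean of the negative probes, r was 0.759 for Rpl19 (permutation p = 0.00338, adjusted 0.0186; rho = 0.652, adjusted 0.0674) and 0.740 for Gapdh (permutation p = 0.00622, adjusted 0.0196; rho = 0.680, adjusted 0.0674). Without the 2 farthest lanes these were 0.880 and 0.749, and for counts per Positive probe they were 0.436 and 0.435, with an adjusted permutation p of 0.353 for each. With the group means removed, r was 0.7038 for Rpl19 (adjusted permutation p = 0.0330) and 0.5665 for Gapdh (adjusted permutation p = 0.155), so only Rpl19 passed. The negative probes counted 14.6 to 26.3 on average per lane, where the lowest Gapdh count was 256.

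**Figure D2:**
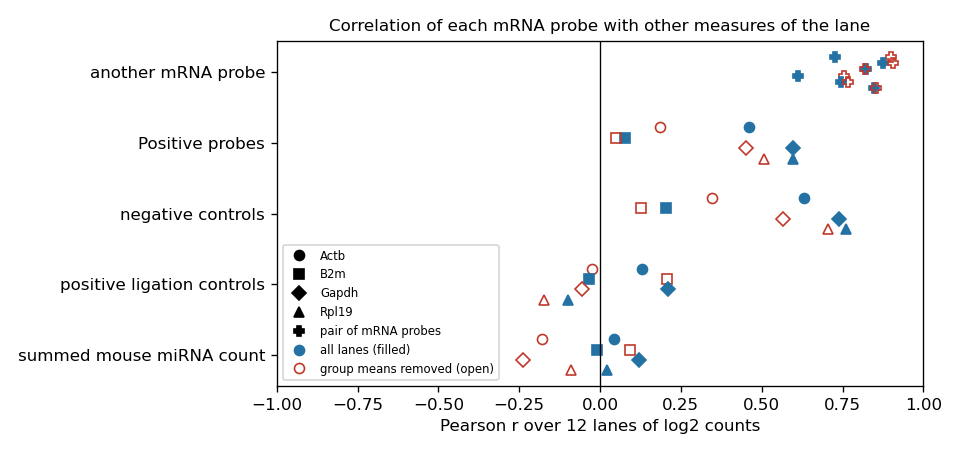
Pearson r over 12 lanes between the log2 count of each mRNA probe and another measure of the lane, for all lanes (filled) and with group means removed (open). Pairs of mRNA probes lie between 0.611 and 0.906, and the relations with the summed miRNA count and the ligation controls lie between -0.240 and 0.209.

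No miRNA followed an mRNA probe as closely as another mRNA probe did. Among the 150 miRNA probes above the limit in every lane, with counts divided by the Positive probes, the closest over the 12 lanes was miR-190 for Actb (r = 0.443) and for B2m (r = 0.607), miR-142-5p for Gapdh (r = 0.453) and miR-1224 for Rpl19 (r = 0.529). The best mRNA partner had r = 0.843 for Actb and for Gapdh and 0.855 for B2m and for Rpl19, and 0 of 150 miRNAs exceeded it for any of the 4. The median r over the 150 miRNAs was -0.006 for Actb, 0.046 for B2m, 0.151 for Gapdh and -0.010 for Rpl19. These are descriptions over lanes that share depth, and carry no test.

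The geometric mean of the 4 probes, the usual summary of reference mRNAs, was 732, 1048 and 854 in Control, 865, 1238 and 1021 in OGD, 976, 914 and 1287 in OGD+CX-4945 and 931, 869 and 971 in OGD+MS-275. The lanes of all groups overlapped, with the widest spread in OGD+CX-4945 and the narrowest in OGD+MS-275. The summed mouse miRNA count was 302026, 302003 and 374440 in Control, 416083, 254692 and 360511 in OGD, 369903, 358905 and 542399 in OGD+CX-4945 and 465509, 438931 and 337853 in OGD+MS-275.
The miRNA-to-mRNA ratio, the summed miRNA count over that geometric mean, was 412, 288 and 438 in Control, 481, 206 and 353 in OGD, 379, 393 and 422 in OGD+CX-4945 and 500, 505 and 348 in OGD+MS-275. OGD held the lowest lane of all, replicate 2, and also 1 of the 3 highest, and all 4 groups overlapped each other. The SD over 3 samples was 138 in OGD, 80.3 in Control, 89.4 in OGD+MS-275 and 21.7 in OGD+CX-4945.
On the log2 scale the mean ratio was 0.44 higher in OGD+MS-275 than in OGD (1.36-fold), 0.28 higher in OGD+CX-4945 than in OGD (1.22-fold) and 0.19 lower in OGD than in Control (0.875-fold). The SD within groups was 0.38, so these differences were of the size of the spread between replicates. Without OGD replicate 2 they were 0.11, -0.05 and 0.14, so that the last 2 changed sign. No test is given, since the ratio is a score over the 4 probes.

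**Figure D3:**
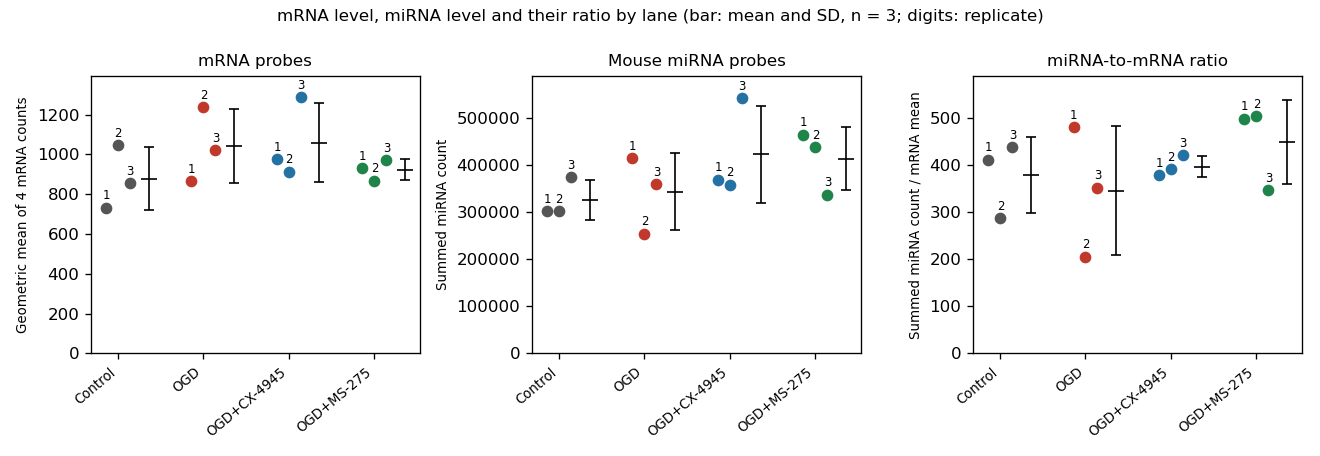
Geometric mean count of the 4 mRNA probes, summed mouse miRNA count and their ratio in each lane, by group, with the replicate number and a bar for the mean and SD of 3 samples. OGD replicate 2 combines a high mRNA mean (1238) with the lowest miRNA count (254692) and has the lowest ratio (206).

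Which probes looked steady between replicates depended on what they were divided by. Divided by the Positive probes, the SD within groups on the log2 scale was 0.169 for Rpl19, 0.171 for Gapdh, 0.281 for Actb and 0.344 for B2m, against a median of 0.413 over the 150 miRNA probes. Only 1.33% of the miRNA probes had a lower SD than Rpl19 or Gapdh, and 24.7% a lower one than B2m. Divided by the miRNAs through TMM, the SD was 0.372 for Rpl19, 0.382 for Gapdh, 0.430 for B2m and 0.447 for Actb, against a median of 0.214 for the miRNAs, and 94.0% to 96.7% of the miRNAs were steadier.
Of 21 miRNAs that are often used as references, such as miR-16, miR-191 and miR-103, 18 were above the limit in every lane. Their median SD was 0.451 per Positive probe and 0.190 under TMM, close to the other miRNAs on either scale. miR-16, for example, had 0.484 per Positive probe, 0.150 under TMM and 0.496 when divided by the mRNA mean. TMM takes its factors from the miRNAs themselves, so a low miRNA spread on that scale is in part set by the method.

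**Figure D4:**
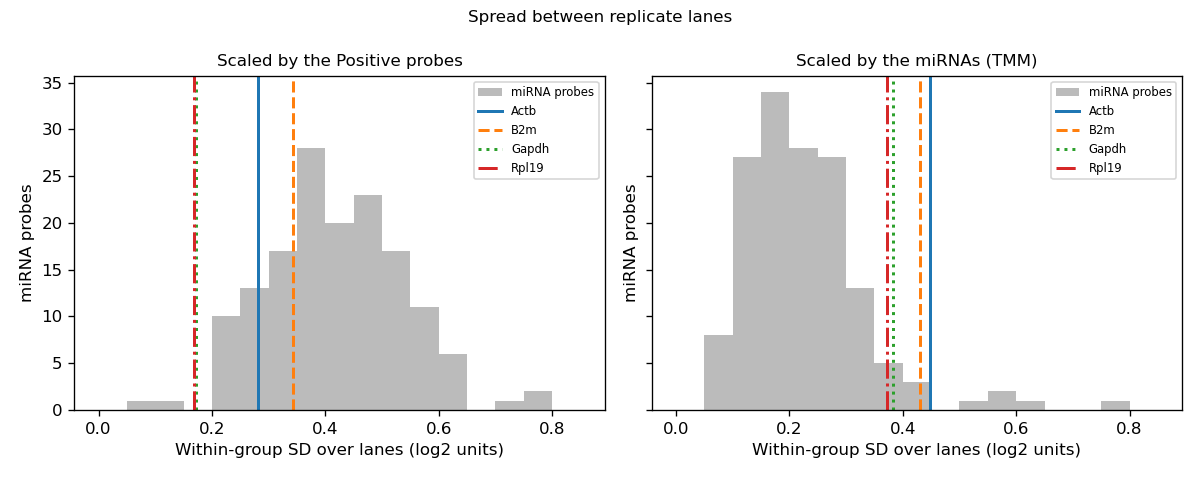
Histogram of the within-group SD over lanes (log2 units) of 150 miRNA probes, with lines for the 4 mRNA probes, after division by the Positive probes (left) and after TMM scaling by the miRNAs (right). Rpl19 and Gapdh lie at 0.169 and 0.171 on the left, below most miRNAs, and at 0.372 and 0.382 on the right, above most.

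Scaled by the mRNA geometric mean, miRNA counts spread more between replicates than under factors from the miRNAs or the control probes. In either drug group against OGD, most miRNA estimates then lay on the same side of 0. The common biological coefficient of variation, edgeR's estimate of replicate spread beyond counting error, was 31.5% with the mRNA geometric mean, against 16.6% with TMM, 17.2% with the total miRNA count, 25.5% with the ligation controls and 29.1% with the Positive probes. Single mRNA probes gave 30.1% for Rpl19, 30.5% for Gapdh, 33.8% for B2m and 34.4% for Actb. TMM and the total miRNA count take their factors from the same miRNAs, so their lower values are in part set by the method.
The median log2 change of the 217 tested miRNA probes under mRNA scaling was -0.11 in OGD against Control, 0.26 in OGD+CX-4945 against OGD and 0.54 in OGD+MS-275 against OGD, where TMM gave 0.01, 0.03 and 0.03. In OGD+MS-275 against OGD, 213 of the 217 estimates were above 0 under mRNA scaling and 121 under TMM. Under mRNA scaling 199 were above 0 in OGD+CX-4945 against OGD, and 56 in OGD against Control. These medians and counts include OGD replicate 2 and are not given without it. For single miRNAs, values without that lane follow below. Scaled by the ligation controls, the same median was -0.42, so the direction of the bulk of the miRNAs depended on the control used.

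**Figure D5:**
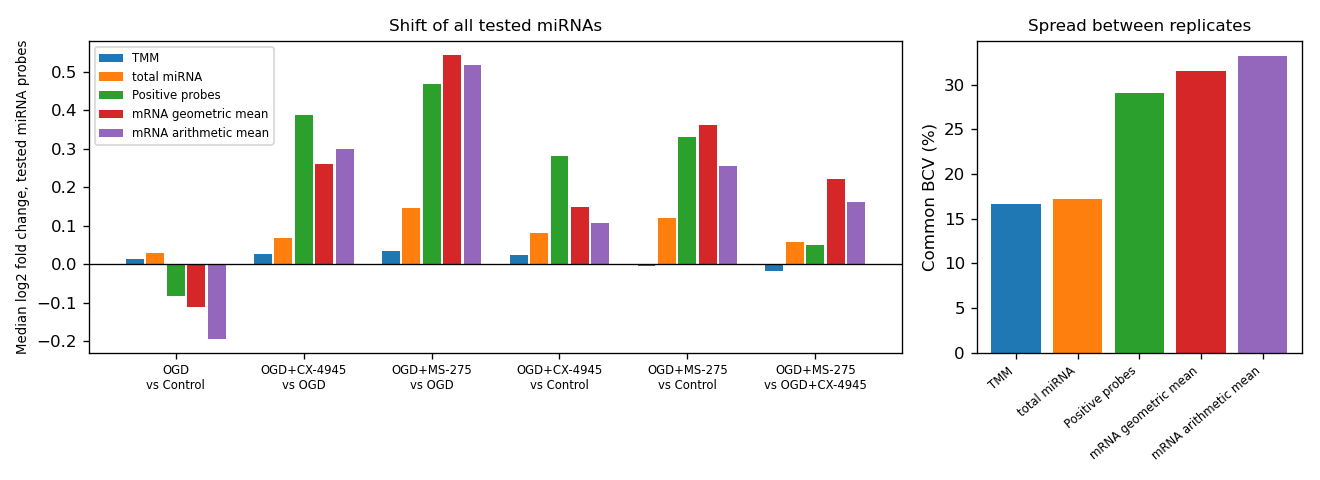
Median log2 fold change of 217 miRNA probes in 6 comparisons under 5 scalings (left) and the common biological coefficient of variation (BCV) in percent under each (right). With MS-275 against OGD the median is 0.54 under the mRNA geometric mean and 0.03 under TMM, and the BCV is 31.5% and 16.6%.

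With mRNA scaling, edgeR's quasi-likelihood test called 7 of 217 miRNA probes (3.23%) in OGD+MS-275 against OGD, 4 (1.84%) in OGD+MS-275 against Control and 1 (0.461%) in OGD+MS-275 against OGD+CX-4945, all higher with MS-275. TMM scaling called 1 (0.461%), 3 (1.38%) and 0 (0.0%) in the same comparisons, the last with 9 probes at an unadjusted p under 0.05. Of the TMM calls, 1 of 1 against OGD and 2 of 3 against Control were also called with mRNA scaling. In OGD against Control, OGD+CX-4945 against OGD and OGD+CX-4945 against Control mRNA scaling called 0 (0.0%), with 0, 6 and 5 probes at an unadjusted p under 0.05, and DESeq2 with the mRNA factors also called 0. The median shift given above stands behind each of these values, so a probe at a log2 change of 0.54 in OGD+MS-275 against OGD moved with the rest.
The 7 probes in OGD+MS-275 against OGD were miR-2134, miR-2141, miR-2133, miR-2140, miR-153, miR-7a and miR-34b-5p. Of these, miR-2133, miR-2134, miR-2140 and miR-2141 carry retired miRNA names, so their counts are not read as those of accepted miRNAs. The same probes made up every mRNA-scaled call in OGD+MS-275 against Control, and miR-2134 was the only call between the drug groups. miR-2141 had raw counts of 455, 302 and 609 in OGD and 1238, 2486 and 1636 in OGD+MS-275, without overlap. Its log2 change was 2.10 ± 0.43 with mRNA scaling (SE; edgeR adjusted p = 1.2e-04) and 1.63 with TMM (edgeR adjusted p = 0.131).
miR-2133, the probe called under both scalings, had 24, 17 and 31 in OGD and 98, 86 and 72 in OGD+MS-275. Its log2 change was 1.96 ± 0.41 with mRNA scaling (SE; edgeR adjusted p = 1.2e-04) and 1.44 with TMM (edgeR adjusted p = 0.0264). No OGD lane of miR-2133 was above the detection limit, and 4 of the 7 probes were not above it in every OGD lane. All 3 OGD+MS-275 lanes of miR-2133 were above it, as were those of miR-153, which had no OGD lane above it either. These 3 lanes alone meet the filter for testing. The filter thus favours probes that are high in 1 group, and these calls are not independent of it.
Without OGD replicate 2, 3 probes passed in this comparison, namely miR-2134, miR-2141 and miR-2133, and 18 passed in OGD+MS-275 against Control in place of 4. Without OGD replicate 1, which had the highest miRNA-to-mRNA ratio of its group, 74 passed in OGD+MS-275 against OGD in place of 7. Leaving out OGD replicate 3 gave 4, as did leaving out either replicate 1 or replicate 2 of OGD+MS-275.
miR-34b-5p, of the miR-34 family that p53 induces, was among the 6 probes called with mRNA scaling and not with TMM. Its mature sequence, from RefSeq on GRCm38.p6 at chr9:51103610-51103632 on the minus strand, is printed with the seed, bases 2 to 8, in capitals.
miR-34b-5p: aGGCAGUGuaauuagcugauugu
It was counted 37, 18 and 18 times in OGD and 65, 61 and 43 times in OGD+MS-275, where 2 of 3 lanes were above the limit. The lanes did not overlap, but the nearest, 37 and 43, were both below the limit. The log2 change was 1.32 ± 0.40 with mRNA scaling (SE; edgeR adjusted p = 0.0314), 0.83 with TMM (edgeR adjusted p = 0.191) and 1.04 with mRNA scaling without OGD replicate 2 (edgeR adjusted p = 0.221).
Of the 3 miRNAs named for an estimate below 0, miR-27a had 8379, 6565 and 6443 counts in OGD and 6748, 6441 and 5537 in OGD+MS-275. Its log2 change was -0.065 with mRNA scaling (edgeR adjusted p = 0.903) and -0.61 with TMM (edgeR adjusted p = 0.149). miR-15a had 5100, 3248 and 3027 counts against 4393, 3263 and 2794, with a log2 change of -0.017 with mRNA scaling (edgeR adjusted p = 0.969) and -0.53 with TMM (edgeR adjusted p = 0.209). The groups of both probes overlapped. Of 2 abundant miRNAs, miR-338-3p, a glial miRNA of the oligodendrocyte lineage, had 23660, 12699 and 19830 counts in OGD and 24122, 24648 and 17082 in OGD+MS-275, with overlap, and its log2 change was 0.33 with mRNA scaling and -0.14 with TMM. miR-16 had 14206, 7531 and 13327 against 18878, 18526 and 12338, with a log2 change of 0.61 with mRNA scaling and 0.14 with TMM. Neither passed under either scaling (edgeR adjusted p from 0.263 to 0.523). Without OGD replicate 2 the log2 change with mRNA scaling was 0.034 for miR-338-3p and 0.30 for miR-16.

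The deposited processed table was itself scaled by these 4 probes. Its values over 20 equalled the raw count less the lane's median negative count, times a lane factor, and the factor times the arithmetic mean of the 4 background-subtracted mRNA counts was constant over the lanes, to a coefficient of variation of 1.56e-05%. With the geometric mean it was 4.01%. The deposited factors ran from 0.744 in OGD replicate 2 to 1.44 in Control replicate 1, 1.94-fold, where geometric-mean factors ran 1.76-fold.
In an arithmetic mean the probe with the highest count weighs most, and Actb made up 63.4% to 71.0% of the background-subtracted mRNA sum. Its share was 63.4%, 64.5% and 66.5% in Control, 66.4%, 71.0% and 68.6% in OGD, 68.2%, 67.6% and 66.5% in OGD+CX-4945 and 69.1%, 70.8% and 70.2% in OGD+MS-275. The 3 OGD+MS-275 lanes were above the 3 Control lanes, and OGD overlapped both.
On the deposited values limma called 3 miRNA probes (1.38%) in OGD+MS-275 against OGD and 1 (0.461%) in OGD+MS-275 against Control, all of them among those called on the raw counts with mRNA scaling in the same comparison. It called 0 (0.0%) in OGD against Control, OGD+CX-4945 against OGD, OGD+CX-4945 against Control and between the drug groups, where 10, 14, 3 and 2 probes had an unadjusted p under 0.05. The median log2 change was -0.33 in OGD against Control, 0.49 in OGD+CX-4945 against OGD and 0.71 in OGD+MS-275 against OGD, with 8, 214 and 214 of 217 estimates above 0.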

How the data were processed

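Raw counts were as the authors deposited them: per the file headers, each column holds the barcode count of every probe in 1 nCounter lane. A second deposited table holds processed signal values, whose making is not given in the sources used here, and entered 1 alternative after log2 transformation with a pseudocount of 1. The members and lists were chosen with earlier results of these data known. A single unnamed row was dropped.

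The detection limit was the mean plus 2 SD of the 8 negative probes of a lane, and a miRNA probe was tested when above it in at least 3 lanes. Counts were tested with edgeR 4.0.16 (quasi-likelihood, robust dispersion, R 4.3.3), all 12 samples in 1 fit with a mean per group, Benjamini-Hochberg adjustment over all tested probes and a threshold of 0.05. The mRNA probes were fitted with TMM factors from the miRNA probes, and miRNA probes with the geometric mean of the mRNA probes as size factor. DESeq2 1.42.0, limma 3.58.1, other scalings, background subtraction, replicate blocks, a ligation covariate and leaving out each sample were alternatives. Single values were compared by exact two-sided permutation tests, correlations by permutation with 100000 resamples (scipy 1.17.1).

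Data of 221 probes were simulated for OGD+MS-275 against OGD under TMM scaling. The test recovered 20 of 22 probes changed 2-fold and 20 of 20 changed 3-fold, with 1 false call. Every probe was given the same spread, and the changed miRNAs were drawn from those with higher mean counts. The simulation does not measure recovery or false calls under mRNA scaling, where the coefficient of variation was 31.5% against 16.6% with TMM. Nor does it measure recovery near the detection limit, or for a spread as wide as that of the mRNA probes under TMM. Named miRNAs were up to 5 with the smallest unadjusted p in each direction in each of OGD against Control and each drug against OGD, among those above the limit in all lanes of the higher group, and 21 reference miRNAs; every called probe, and miR-338-3p, was added after its values were seen. The text names those a result turns on. Marker lists for oligodendrocytes, neurons and retina, leukocytes and erythroid cells are reported. The astrocyte (2.13% to 3.88% of the miRNA count), endothelial (2.46% to 3.40%), pigment epithelium (1.19% to 1.55%) and skeletal muscle (0.0378% to 0.0546%) lists were also summed. Of these, the endothelial and pigment epithelium lists are given by group for Control and OGD+MS-275.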

Additional observations from a re-analysis of the deposited data

How the results depend on the processing

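None of the 24 tests of an mRNA probe against the miRNAs passed under any alternative (lowest edgeR adjusted p 0.0554). All 60 alternative values of the miRNA-to-mRNA difference lay within 1 within-group SD, 0.38, of the reported one. That SD exceeded most of the differences, so this does not show that their signs held. Leaving out 1 sample gave -0.47 to 0.14 in OGD against Control. The raw-count alternative equals the reported ratio by construction. After background subtraction the 6 separated mRNA ratios kept their direction. Leaving out 1 sample could not reverse those ratios, since their groups did not overlap. Calls among mRNA-scaled miRNAs in OGD+MS-275 against OGD, 7 as reported, were 1 with TMM or DESeq2 size factors, 2 with the total miRNA count, 3 with Actb alone as factor, after background subtraction or on the deposited values, 4 without a filter or with DESeq2, and 26 with the title-number set of 3 as replicate block. In OGD+MS-275 against Control, 4 as reported, they were 2 with DESeq2 size factors, 9 with the total miRNA count, 9 with that block and 1 on the deposited values. In OGD+CX-4945 against Control, 0 as reported, DESeq2 size factors gave 1. In OGD+MS-275 against OGD+CX-4945, 1 as reported, 0 were left under TMM, DESeq2 size factors, the total miRNA count, the Positive probes, the arithmetic mean, the factor without B2m, Gapdh or Rpl19, Actb alone, no filter, DESeq2, background subtraction, the replicate block of 2 and the deposited values. Leaving out 1 sample gave 3 to 74, 2 to 18, 0 to 1 and 0 to 1 in these 4 comparisons. The cause was not tested. The blocks rest on numbers in the sample titles, which no label calls a batch: samples of 1 set of 3 had a median correlation of their deviations of 0.391 over 18 pairs, against -0.212 over 36 other pairs, and 9 of 12 correlated best with their own set. Control, OGD and OGD+CX-4945 had 1 sample in each of these 3 sets. OGD+MS-275 had 2 samples in set 1, 1 in set 2 and none in set 3. Set and MS-275 are thus partly confounded, and the fit behind the reported calls held no block.

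The estimates of mRNA probes against the miRNAs changed sign under some scalings, none past the threshold. Scaled by the Positive probes, they were 0.19 for Actb, 0.21 for Gapdh and 0.074 for Rpl19 in OGD+CX-4945 against Control, 0.14 for Actb and 0.025 for Gapdh in OGD+MS-275 against Control, -0.096 for B2m in OGD against Control, and 0.030 for B2m, 0.17 for Gapdh and 0.043 for Rpl19 in OGD+CX-4945 against OGD. With the ligation covariate, they were 0.28 for Actb, 0.31 for Gapdh and 0.20 for Rpl19 in OGD+CX-4945 against Control, 0.29, 0.18 and 0.086 in OGD+MS-275 against Control, 0.0064 for Actb between the drug groups, and 0.11 for Gapdh and 0.023 for Rpl19 in OGD+CX-4945 against OGD. The ligation counts of OGD+MS-275 did not overlap those of Control, so ligation and group cannot be told apart there. Scaled by the total miRNA count, Gapdh was at 0.022 in OGD+CX-4945 against Control. Leaving out 1 sample gave, in OGD against Control, -0.051 to 0.74 for Actb, -0.29 to 0.41 for B2m, -0.19 to 0.48 for Gapdh and -0.20 to 0.41 for Rpl19. It gave -0.52 to 0.16 for Gapdh and -0.61 to 0.0090 for Rpl19 in OGD+CX-4945 against OGD, -0.18 to 0.16 for Actb and -0.13 to 0.12 for Gapdh in OGD+CX-4945 against Control, -0.34 to 0.063 for Actb in OGD+MS-275 against Control and -0.27 to 0.027 for Actb between the drug groups.

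Per Positive probe, leaving out 1 sample gave log2 differences of -0.25 to 0.12 for B2m, -0.069 to 0.15 for Gapdh and -0.056 to 0.12 for Rpl19 in OGD against Control, -0.22 to 0.12 for Actb, -0.24 to 0.14 for B2m and -0.091 to 0.13 for Rpl19 in OGD+CX-4945 against OGD, and -0.27 to 0.075 for Actb and -0.12 to 0.095 for Gapdh in OGD+MS-275 against OGD. Without Positive scaling, B2m differed by 0.11 in OGD against Control and by -0.017 in OGD+CX-4945 against OGD. With group means removed, r with the miRNA count was -0.18 for Actb, 0.094 for B2m, -0.24 for Gapdh and -0.089 for Rpl19, and with the ligation controls -0.026 for Actb, 0.21 for B2m and -0.056 for Gapdh. Per Positive probe, B2m had r = 0.16 with the miRNA count and 0.054 with the ligation controls. Precision was limited by 3 samples per group and, near the detection limit, by background counts.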
